A study of Caenorhabditis elegans with 2 samples.

Results

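The tRNA genes on the 5 autosomes of Caenorhabditis elegans were examined for peaks of HIM-1-GFP, the tagged SMC1 subunit of the cohesin ring. The members were all genes annotated as tRNA on chromosomes I to V of the WBcel235 assembly (the sequence of ce11), which gave 336 genes of 612 nuclear tRNA genes; the other 276 lie on X. Chromatin immunoprecipitation followed by sequencing was done on whole hermaphrodite young adults of strain YL577, which carries a stable C-terminal GFP-FLAG fusion to HIM-1, 47 hours after synchronization of starved L1 larvae. An anti-GFP antibody is given in the description, while the antibody field names him-1. Both libraries belong to the same condition and are numbered as biological replicates 1 and 2. The labels do not say that they came from separate cultures, so the difference between them may be technical, and no control library was among the samples, although the labels name a possible control experiment. Whether the signals are relative to that control is not stated in the labels. Whole animals were used, so the peaks average over all tissues, including the germline.

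Genes for tRNAs are transcribed by RNA polymerase III from promoters that lie inside the gene, an A box near the 5′ end and a B box near the 3′ end. The factor TFIIIC binds both boxes and recruits TFIIIB upstream of the start. Cohesin holds sister chromatids together, and in budding yeast its loading factor is found at tRNA genes.

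For each gene the highest signal of a summit within 250 bp of the gene was taken. The signal is the value that the authors' peak caller gave each peak. The main list is the authors' optimal list of 2051 peaks, thresholded by IDR, a measure of how repeatable the ranks of peaks are. Whether its number came from comparing the replicates themselves is not given in the sources used here. All 2051 are the strongest entries of the pooled list of 18314, so the list is a threshold on the pooled signal, and a single peak in it need not rank high in both replicates. Each replicate's own list was reduced to its 2051 strongest peaks when shares were compared. In what follows, a peak at a gene means a summit of the optimal list in that window unless another list is named. Read depth was not given, so intervals on shares are 95% intervals that cover counting error over genes only. They treat genes as independent, although neighbouring genes can share a summit, and they are not adjusted for the number of comparisons.

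The sequences of 11 genes show what the peaks did and did not distinguish, in lower case with the B box in capitals, read 5′ to 3′ on the gene's strand from the RefSeq genome of WBcel235. The first, a tRNA-Leu gene with an intron of its own (chrIII:8109603-8109724, plus strand), had the highest signal of any single-copy autosomal tRNA gene. The next pair, tRNA-Lys (chrV:15465086-15465158, plus strand) and tRNA-Pro (chrV:15465225-15465296, minus strand), are intergenic and shared 1 summit. The tRNA-Pro gene holds a B box only in the form with 1 base free that is described with the motif counts. The tRNA-Lys gene T10B9.t1 (chrII:9773654-9773728, plus strand), in an intron of ZK1321.4, is given for contrast, because it has a B box and no entry in any of the 4 lists.
C14B9.t2: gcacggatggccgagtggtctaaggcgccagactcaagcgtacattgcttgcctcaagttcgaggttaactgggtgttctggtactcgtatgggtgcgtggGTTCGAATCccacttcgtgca
T23F1.t1: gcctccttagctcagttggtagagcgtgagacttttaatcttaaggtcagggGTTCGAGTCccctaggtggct
T23F1.t2: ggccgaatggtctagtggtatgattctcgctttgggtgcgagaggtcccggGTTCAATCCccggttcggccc
T10B9.t1: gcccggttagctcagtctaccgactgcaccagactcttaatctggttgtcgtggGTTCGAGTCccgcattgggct

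The tRNA-Ser genes F42A10.t1 (chrIII:6158778-6158859, plus strand) and F42A10.t2 (chrIII:6158965-6159050, plus strand) are intergenic and shared a summit of signal 185. The tRNA-Ser gene K11H3.t1 (chrIII:9862022-9862103, minus strand), in an intron of twk-48, had no entry in any list, and it differs from F42A10.t1 by 1 substitution, C50T, counted from 1 at the 5′ end of the gene. F42A10.t2 differs from its most similar tRNA gene by 8 base edits. The set is shown because near-identical genes lay on both sides of the call.
F42A10.t1: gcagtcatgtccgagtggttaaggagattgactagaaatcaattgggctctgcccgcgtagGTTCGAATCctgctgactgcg
F42A10.t2: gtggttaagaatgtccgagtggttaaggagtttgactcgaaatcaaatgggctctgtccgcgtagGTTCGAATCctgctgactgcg
K11H3.t1: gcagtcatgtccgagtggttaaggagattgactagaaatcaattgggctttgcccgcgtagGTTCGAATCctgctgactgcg

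The last pairs each set a gene with a peak beside a gene for the same amino acid with no entry in any list. ZK622.t1 (tRNA-Ala, chrII:5292332-5292403, plus strand, signal 164) and M03A1.t2 (tRNA-Ala, chrII:4565016-4565087, minus strand, no entry) are intergenic, have the same bases up to the B box and differ by 8 substitutions between positions 63 and 72, the 3′ end of the gene. Y73B6BL.t1 (tRNA-Val, chrIV:6481161-6481233, plus strand, in an intron of tyr-6, signal 141) has a B box. Y73B6BL.t2 (tRNA-Val, chrIV:6470291-6470372, plus strand, in an intron of tmed-13, no entry) matched neither searched form of the B box, so it is printed without capitals. A failed match does not show that a similar element is absent.
ZK622.t1: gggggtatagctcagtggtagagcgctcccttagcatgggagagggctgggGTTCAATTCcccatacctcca
M03A1.t2: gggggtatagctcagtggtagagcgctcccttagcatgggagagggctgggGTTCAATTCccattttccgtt
Y73B6BL.t1: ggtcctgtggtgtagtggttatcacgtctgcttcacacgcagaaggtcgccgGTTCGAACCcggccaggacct
Y73B6BL.t2: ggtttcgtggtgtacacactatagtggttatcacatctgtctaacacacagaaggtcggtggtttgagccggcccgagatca

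About 64% of the autosomal tRNA genes carried a HIM-1-GFP peak. The count was 216 of 336 genes (64.3%, Clopper-Pearson interval 58.9 to 69.4%), against 68.5% of all nuclear tRNA genes. Among autosomal stretches of 572 bp, as wide as a typical tRNA gene with its windows, 1.21% held a summit, and 3.04% of autosomal protein-coding genes had a summit within 250 bp of the 5′ end. Among the strongest peaks of replicate 1, 206 genes (61.3%) had a summit, against 66% of all tRNA genes and 1.21% of stretches. Among those of replicate 2 the count was 209 genes (62.2%), against 66.7% of all tRNA genes and 1.2% of stretches. The mean over the replicates was 61.8% ± 0.631 (SD, n = 2).

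The genes without a peak ranged from entries just below the optimal list to no entry at all. A further 80 genes had an entry in the pooled list but no peak, with pooled signals of 22.4 to 60.7 and a median of 40.6. The pooled list reached 296 genes in all (88.1%), against 88.7% of all tRNA genes and 10.7% of autosomal stretches. Of the 40 genes with no pooled entry, 6 had an entry in a replicate's own list and 34 had none in any list. The lowest signals among genes with a peak were 61.8 and 62.4, and the highest among pooled entries without one were 60.7 and 60.2, so the boundary fell within a continuous run of values.

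The replicates ranked the genes in a similar order. A summit among the strongest peaks of both replicates lay at 182 genes, of replicate 1 alone at 24, of replicate 2 alone at 27 and of neither at 103. All 182 shared genes carried a peak in the optimal list, as did 9 of the 24, 24 of the 27 and 1 of the 103. K02E11.t1 (tRNA-Gln) had a peak of signal 62.4 with rank 11957 in replicate 1 and rank 1326 in replicate 2, and M01E10.t1 (tRNA-Glu) had a peak of signal 96.7 with rank 578 in replicate 1 and no entry in replicate 2. Both were chosen after their values were seen. Over the 273 genes with an entry in both replicates' full lists, Spearman's rho between the signals was 0.773 and Pearson's r between log2 signals was 0.765. These are descriptions across genes of the same 2 libraries, and 40 of these genes share their summit with another.

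**Figure D1:**
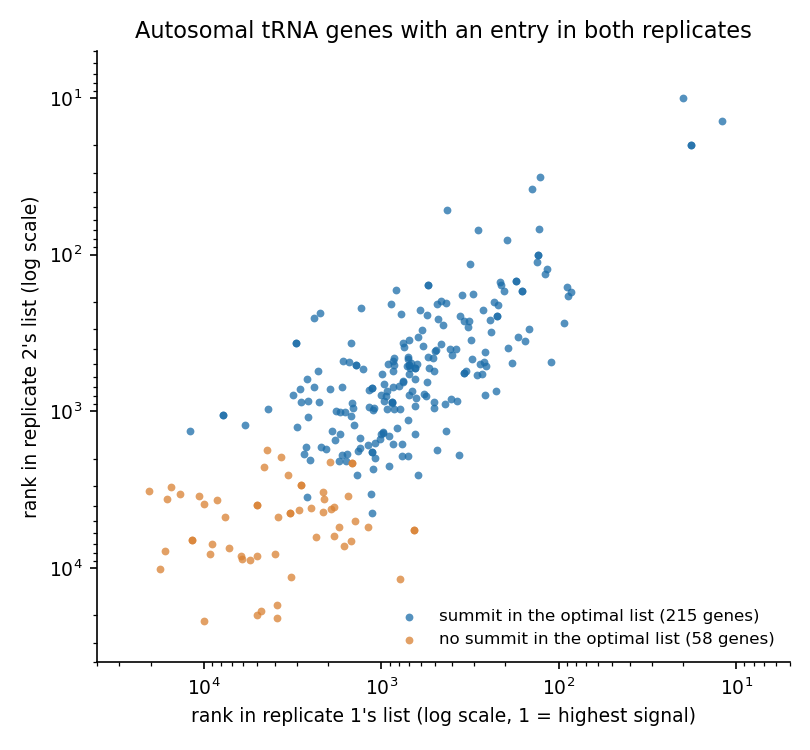
Rank of the highest summit within 250 bp of each autosomal tRNA gene in replicate 1's own list (x axis) and replicate 2's own list (y axis), both on log scales with the highest signal at rank 1, for the 273 genes with an entry in both. Blue points are genes with a peak in the optimal list and orange points are genes without one; blue points fill the upper right and a few genes lie far ahead of the rest in both replicates.

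Single loci led the list. M01E5.t1, an intergenic tRNA-Lys gene on chromosome I (13297673 to 13297745), had signal 307 in the optimal list, with signal 125 and rank 20 in replicate 1's list and signal 179.8 and rank 10 in replicate 2's. C14B9.t2, the tRNA-Leu gene printed first, lies in an intron of C14B9.3 and had signal 306, with 139 and rank 12 in replicate 1 and 170.1 and rank 14 in replicate 2. The pair T23F1.t1 and T23F1.t2 shared a summit of signal 283, which had rank 18 in replicate 1 and rank 20 in replicate 2. These 4 genes ranked 20 or higher in both libraries, and the next gene was below them in both.

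That next gene was F35H8.t1 (tRNA-Arg, II, 9566241 to 9566313), with signal 227 and ranks 127 and 32 in replicates 1 and 2. F56F3.t1 (tRNA-Arg, III, 4470886 to 4470958) had signal 212 and ranks 141 and 38. F18C5.t1 (tRNA-Lys, II, 6565248 to 6565320), in an intron of mpz-3, had signal 195 and ranks 130 and 69. Each of these ranked higher in replicate 2 than in replicate 1. The F42A10 pair followed with 185 and C04A2.t1 (tRNA-Leu, II, 6853204 to 6853285) with 184, and C04A2.t1 had ranks 116 and 123.

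At the other end, the first 5 genes in genome order with no entry in any list were F27D4.t1 (tRNA-Asn), T22C1.t1 (tRNA-Ile), F53B6.t1 (tRNA-Lys), C36F7.t2 (tRNA-Ile) and T22A3.t4 (tRNA-Gly), all on chromosome I. All 5 hold the B box letters, and their numbers of identical copies in the genome were 1, 4, 1, 4 and 3. Of the 34 genes with no entry, 19 had no identical copy elsewhere, against 35 of the 216 genes with a peak.

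The peaks at tRNA genes were stronger than most autosomal peaks but were not the strongest. The 216 genes were reached by 217 summits, of which 18 reached 2 genes. Their median signal was 103, against 79.6 for the 1611 other autosomal peaks of the same list. Of the 100 strongest peaks in the list, 81 were autosomal and 6 of these lay at tRNA genes. Over the 216 genes the signal ran from 61.8 to 307 with a median of 107 and an interquartile range of 83.9 to 135.

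Summits lay on or close to the gene body. The strongest summit within the window was a median of 29.5 bp downstream of the 5′ end (interquartile range -4.75 to 80 bp, where negative is upstream). It was inside the gene for 92 genes (42.6%), upstream for 60 (27.8%) and downstream for 64 (29.6%). For the 156 isolated genes with a peak, where no other tRNA gene lay within 1000 bp, the median was 28.5 bp, and 78 summits (50%) were inside the gene, which is typically 72 bp long. The B box started at a median of base 53. Summits beyond the window were not counted, which bounds these distances.

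**Figure D2:**
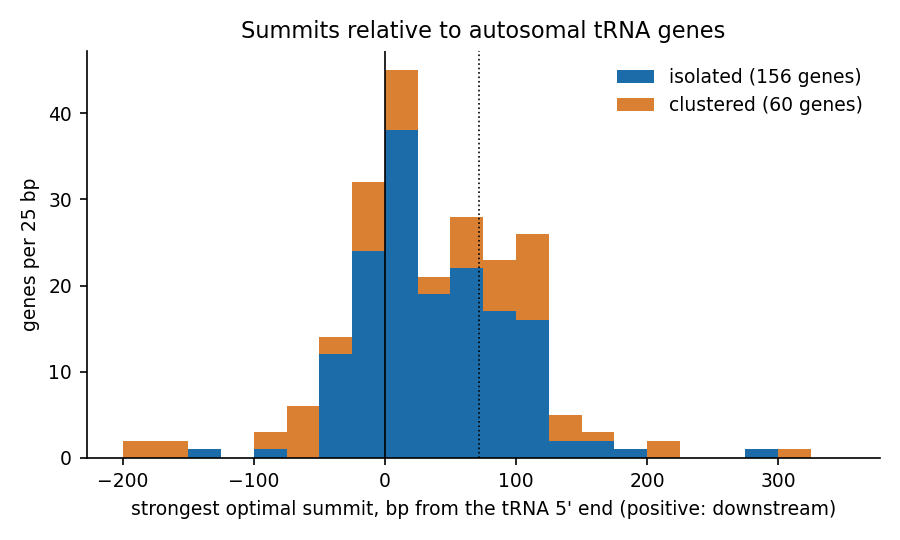
Distance in bp from the 5′ end of the tRNA gene to the strongest optimal summit within 250 bp of it (x axis, positive downstream on the gene's strand), as genes per 25 bp (y axis), for 156 isolated and 60 clustered genes with a peak, stacked. The solid line is the 5′ end and the dotted line 72 bp, the median gene length; most summits lie between 50 bp upstream and 125 bp downstream.

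Genes with identical copies elsewhere in the genome had peaks more often than single-copy genes, a comparison chosen after seeing the data. Genes with at least 1 identical copy had a peak in 181 of 250 cases (72.4%, interval 66.4 to 77.8%), against 35 of 86 single-copy genes (40.7%, interval 30.2 to 51.8%). The difference was 31.7 percentage points (Newcombe interval 19.6 to 42.8). It was 27.7 points in replicate 1 and 28.9 points in replicate 2. In the pooled list 232 of 250 genes with several copies (92.8%) and 64 of 86 single-copy genes (74.4%) had an entry. Among genes with a peak, the median signal was 106 for several copies and 115 for single copies, so the medians stood in the opposite order to the shares.

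The share showed no steady order with the number of copies. It was 62.5% for 2 copies, 77.1% for 3 to 5, 63.8% for 6 to 10, 75.3% for 11 to 20 and 74.5% for over 20, with overlapping intervals. All 336 genes were unique once 50 bp of flank on each side were added. How reads that fit several places were treated is not given in the sources used here, and its part in these shares was not tested.

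Among the single-copy genes, those least like any other tRNA gene had the fewest peaks, also a comparison chosen after seeing the data. Genes 1 base edit from the most similar tRNA gene had a peak in 15 of 31 cases (48.4%), those 2 to 3 edits away in 11 of 20 (55%) and those 4 to 6 away in 8 of 17 (47.1%). Of the 5 genes at 7 to 10 edits 1 had a peak, F42A10.t2, whose summit is shared with its neighbour. None of the 13 genes over 10 edits away had one, with a Clopper-Pearson upper bound of 24.7%, and 6 of the 13 had a pooled entry. The share for 1 to 3 edits exceeded that for over 3 by 25.3 points (interval 4.19 to 42.8). The cut at 3 edits was not planned and does not mark a step, since the share at 4 to 6 edits was close to that at 1 edit. The low shares were those at 7 to 10 and over 10 edits.

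**Figure D3:**
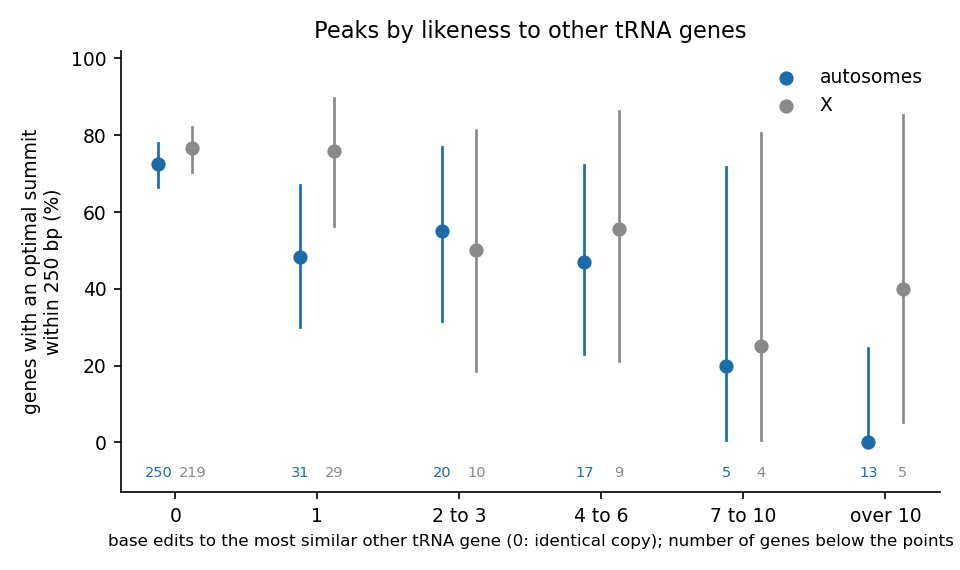
Share of tRNA genes with a peak (y axis, %) by the number of base edits to the most similar other nuclear tRNA gene (x axis, 0 for an identical copy), for autosomes in blue and X in grey, with 95% Clopper-Pearson intervals and the number of genes below. Autosomal shares in the order of the classes are 72.4%, 48.4%, 55%, 47.1%, 20% and 0 of 13 genes over 10 edits. Those on X are 76.7%, 75.9%, 50%, 55.6%, 25% and 40%, so neither series falls at every step.

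Some genes with unusual sequences or known alleles were chosen after their values were seen. The tRNA-Sec gene K11H12.t1, which reads UGA as selenocysteine, had no peak and a pooled signal of 40.8, at rank 15356 in replicate 1 and 3031 in replicate 2. The 4 single-copy tRNA-Leu genes that hold an intron of their own, C14B9.t2, ZK822.t1, F22B7.t1 and B0285.t1, all carried peaks, with signals of 306, 154, 119 and 112. Over all intron-holding genes 11 of 17 had a peak (64.7%), against 205 of 319 without an intron (64.3%). The tRNA-Trp genes sup-5 and sup-29, known from alleles that suppress amber stop codons, had no peak; sup-5 had a pooled signal of 40.6, and sup-29 had an entry in replicate 1's list alone. Their sequence has 10 identical copies in the genome, and 4 of its 6 autosomal genes had a peak.

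Identical genes differed widely from place to place. A tRNA-Lys sequence present 25 times in the genome, 15 of them on autosomes, had 13 genes with a peak. Their signals ran from 68.6 at Y105C5A.t1 on IV to 307 at M01E5.t1 on I, while C17D12.t1, an identical gene in an intron of spe-9, had no entry in any list. The other frequent tRNA-Lys sequence, that of T23F1.t1 and F18C5.t1 printed above, had peaks at all 9 of its autosomal genes, with signals of 78.4 to 283.

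Families also differed from each other in the share with a peak. The tRNA-Asp sequence with 21 copies had peaks at 11 of 11 autosomal genes, and a tRNA-Glu sequence with 15 copies, that of T23H4.t1, at 7 of 7. The tRNA-Gly sequence with 29 copies, the most frequent in the genome, had peaks at 10 of 18, and the tRNA-Val sequence of F58D5.t1 with 12 copies at 3 of 8. For that tRNA-Val family 7 of 8 genes had a pooled entry, and its peaks had signals of 73.8 to 99.5.

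By amino acid, the 17 classes with 10 or more autosomal genes ran from 45.5% to 83.3%, with wide intervals. The highest shares were tRNA-Gln with 10 of 12 (83.3%, interval 51.6 to 97.9%), tRNA-Lys with 23 of 28 (82.1%, interval 63.1 to 93.9%), tRNA-Leu with 18 of 22 (81.8%) and tRNA-Asp with 12 of 15 (80%). The lowest were tRNA-His with 5 of 11 (45.5%, interval 16.7 to 76.6%), tRNA-Gly with 16 of 35 (45.7%, interval 28.8 to 63.4%) and tRNA-Met with 6 of 12 (50%). The range from the highest to the lowest class was 37.9 points, with an interval of -0.797 to 64.9, which included 0. These classes, of 12 and 11 genes, were picked as the extremes, so the interval is a description and does not measure the spread between classes. Between the larger classes tRNA-Lys and tRNA-Gly, a pair chosen after seeing the data for its distance, the difference was 36.4 points (interval 12.5 to 54.7), with 32.9 points in replicate 1 and 39.3 points in replicate 2. Since the pair was chosen for this difference, its interval is a description. Replicate 1 placed tRNA-Gln at 66.7% and tRNA-Leu highest at 86.4%, and replicate 2 placed tRNA-Gln highest at 83.3%, so the order of the upper classes was not shared by the replicates. Both replicates placed tRNA-His lowest and tRNA-Gly next, at 45.5% and 45.7% in replicate 1 and at 36.4% and 42.9% in replicate 2. Split by copies, tRNA-His had a peak at 5 of 6 genes with several copies and at 0 of 5 single-copy genes. For tRNA-Gly the counts were 14 of 28 and 2 of 7. The class of 6 tRNA-Cys genes, below the minimum of 10, had peaks at all 6. The strongest peak of each class ran from 97.3 at F28F8.t2 (tRNA-His) to 307 at M01E5.t1 (tRNA-Lys).

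**Figure D4:**
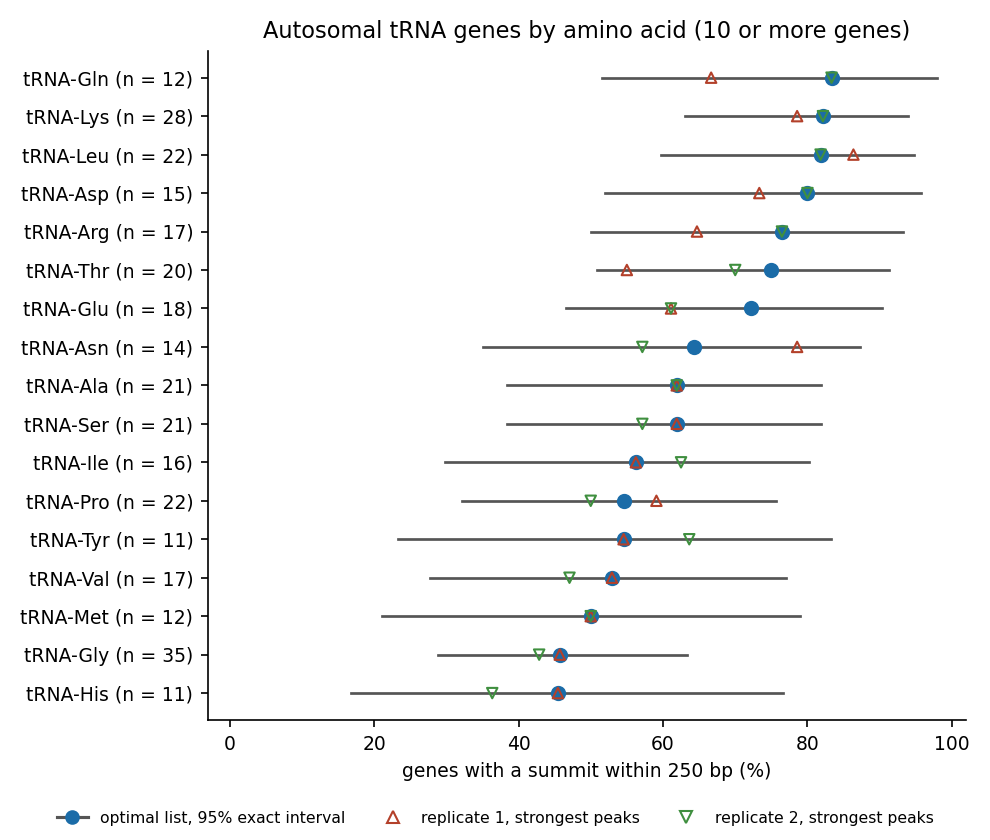
Share of autosomal tRNA genes with a summit within 250 bp (x axis, %) for the 17 amino acids with 10 or more genes (y axis), as filled circles with 95% Clopper-Pearson intervals for the optimal list and open triangles for the strongest peaks of each replicate. tRNA-Gln, tRNA-Lys, tRNA-Leu and tRNA-Asp stand highest and tRNA-His and tRNA-Gly lowest, with intervals that overlap between neighbours.

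Taken as whole classes, isolated and clustered genes did not differ beyond counting error. A peak lay at 156 of 235 isolated genes (66.4%, interval 59.95 to 72.4%), against 60 of 101 clustered genes (59.4%, interval 49.2 to 69.1%). The difference was 6.98 points (interval -4.04 to 18.3). When a summit counted for its nearest tRNA gene alone the difference was 17.9 points with an interval above 0 (6.39 to 28.97), since 1 summit then could not serve both members of a pair. Among genes with several copies alone it was 14.1 points (interval 2.37 to 26.0), and in the pooled list it was -1.45 points.

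Clustered genes differed by the amino acid and by the strand of their neighbour, both chosen after seeing the data. Of the genes with another tRNA gene within 250 bp, 14 of 14 beside a gene for another amino acid had a peak, against 15 of 36 (41.7%) beside a gene for the same amino acid. These genes form 25 pairs, and counted by pair the values were 7 of 7 pairs with a gene for another amino acid (interval 59.0 to 100%) and 8 of 18 pairs for the same amino acid (44.4%, interval 21.5 to 69.2%). The difference by pair was 55.6 points (interval 13.9 to 75.4) in the optimal list and in replicate 2, and 35.7 points in replicate 1, with 6 of 7 and 9 of 18 pairs and an interval that included 0 (-6.84 to 59.7). In the pooled list the difference by gene was 11.1 points, with an interval that included 0.

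The amino acid and the strand of the neighbour went together. Genes on the same strand as their close neighbour had a peak in 12 of 12 cases, against 17 of 38 (44.7%) on the opposite strand. Of the 18 pairs for the same amino acid 16 were in opposite orientation, and 10 were identical in sequence. The low share was in that combination, with 11 of 32 genes (34.4%), against 4 of 4 with a neighbour for the same amino acid on the same strand and 6 of 6 with one for another amino acid on the opposite strand. The 12, 4 and 6 genes lie in pairs whose members share 1 summit. These counts are therefore of genes and not of separate peaks. With so few genes in the other combinations, the parts of amino acid and strand cannot be told apart within 250 bp. Among neighbours within 1000 bp on the opposite strand, 16 of 17 genes beside another amino acid and 21 of 52 beside the same had a peak. On the same strand the counts were 12 of 14 and 11 of 18. The part of each was not tested. The amino acid of the genes themselves also went with these classes. Within 250 bp, most pairs for the same amino acid were tRNA-Gly or tRNA-Pro. Over all autosomal genes, 45.7% and 54.5% of these had a peak. Most pairs with another amino acid held a tRNA-Lys gene, a class with a share of 82.1%. A part of the genes' own amino acid in the neighbour difference was not tested. The tRNA-Gly pair C12C8.t6 and C12C8.t1 on chromosome I shared a pooled entry of 59.0, just below the optimal list, while the identical pair C12C8.t5 and C12C8.t2 nearby had a peak of 98.1. The order came from replicate 2, where the first pair had rank 2131 and the second rank 364; in replicate 1 it was the opposite, with ranks 1457 and 3029. Among pairs for different amino acids, C16C8.t2 (tRNA-Thr) and C16C8.t1 (tRNA-Lys) on II shared a peak of 170.3. Its ranks were 161 in replicate 1 and 171 in replicate 2.

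Genes inside introns of protein-coding genes and those between genes did not differ in their share beyond counting error. A peak lay at 123 of 188 intronic genes (65.4%, interval 58.2 to 72.2%), against 89 of 139 intergenic genes (64.0%, interval 55.5 to 72.0%). The difference was 1.40 points (interval -8.90 to 11.9), and its sign turned to -1.24 points with the 1025 strongest peaks and -0.723 points in the pooled list. Of the 9 genes over an exon 4 had a peak. The median signal of genes with a peak was 105 for intronic and 116 for intergenic genes.

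Within introns, genes on either strand of the host did not differ beyond counting error. Genes on the host's strand had a peak in 74 of 111 cases (66.7%) and those on the opposite strand in 49 of 77 (63.6%), a difference of 3.03 points (interval -10.5 to 16.8). The gap between several copies and a single copy was present in both settings, with 104 of 138 against 19 of 50 intronic genes (37.4 points, interval 21.5 to 51.1) and 73 of 106 against 16 of 33 intergenic genes (20.4 points, interval 1.60 to 38.3). Distance to the nearest protein-coding 5′ end did not order the shares, which were 62.5% within 250 bp, 68.6% at 251 to 500 bp and 60% beyond 5000 bp. By GC content of the gene and its windows, in 4 bins of nearly equal size, the share was 51.2% in the lowest bin (43 of 84) and then 72.9%, 65.1% and 67.9% towards higher GC, and the part of GC content in the other classes was not tested.

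**Figure D5:**
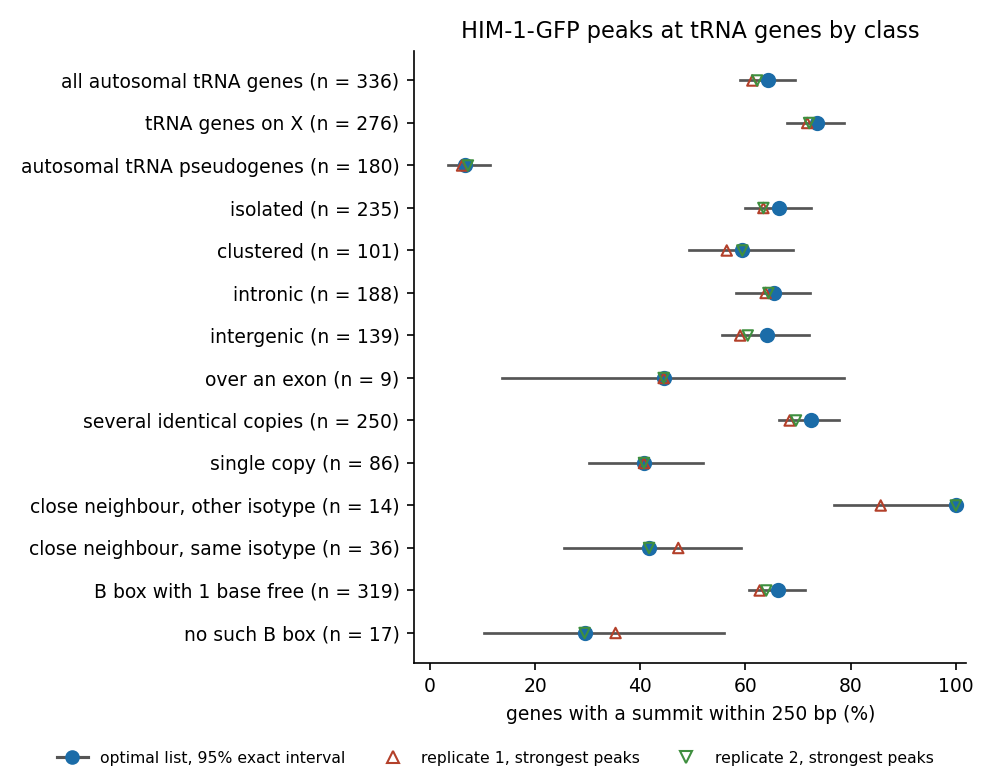
Share of genes with a summit within 250 bp (x axis, %) for all autosomal tRNA genes, X tRNA genes, autosomal tRNA pseudogenes and classes of autosomal tRNA genes (y axis, n in brackets), as filled circles with 95% Clopper-Pearson intervals for the optimal list and open triangles for the strongest peaks of each replicate. Pseudogenes at 6.67%, single-copy genes at 40.7% and close neighbours of the same amino acid at 41.7% stand below the 64.3% of all autosomal tRNA genes.

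The B box was searched as GTTCGANNC on the gene's strand inside the gene, and with 1 further base free as GTTCNANNC, which includes the first form. The first form was in 241 of 336 genes (71.7%) and in 0.261% of 72-bp autosomal stretches on 1 strand and 0.518% on either. The form with 1 base free was in 319 genes (94.9%) and in 1.21% of stretches on 1 strand and 2.40% on either. A match is a description of letters only. A run of TTTT within 20 bp after the gene, where RNA polymerase III commonly stops, followed 329 of 336 genes, and 2 of the 7 genes without it had a peak.

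Genes with the first form had a peak in 158 of 241 cases (65.6%), against 58 of 95 without it (61.1%), a difference of 4.51 points (interval -6.58 to 16.1). With 1 base free, 211 of 319 genes with the letters (66.1%) and 5 of 17 without them (29.4%) had a peak, a difference of 36.7 points (interval 12.4 to 53.6). Of the 17 genes without the letters 8 were single-copy, so this class overlaps the copy classes above. Among genes with several copies, 177 of 241 with these letters and 4 of 9 without them had a peak.

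Annotated tRNA pseudogenes, a comparison chosen after seeing the data, had peaks less often than tRNA genes although most hold the letters of the B box. Of 336 autosomal tRNA genes 216 had a peak, against 12 of 180 autosomal tRNA pseudogenes (6.67%, interval 3.49 to 11.4%), a difference of 57.6 points (interval 50.6 to 63.3). The pseudogene share was above the 1.21% of autosomal stretches that held a summit of the same list. In the pooled list 296 of the 336 genes and 72 of the 180 pseudogenes (40%) had an entry, against 10.7% of autosomal stretches. The first form of the B box was in 71.7% of the genes and 74.4% of the pseudogenes, and the form with 1 base free in 94.9% and 82.2%. The pseudogenes were a median of 22 base edits from the most similar tRNA gene, and none of their 12 summits was also the strongest summit of a tRNA gene.

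Differences by position along the chromosomes, not planned before the data were seen, were near the limit of counting error in the optimal list. By chromosome the shares were 53.0% on I (35 of 66), 64.9% on II (37 of 57), 73.4% on III (47 of 64), 63.4% on IV (45 of 71) and 66.7% on V (52 of 78). Chromosome I was set apart because its share was the lowest, so its interval is a description. The difference of chromosome I from the other autosomes was -14.0 points (interval -27.0 to -1.09), but the interval included 0 in replicate 1 (-10.3 points) and in replicate 2 (-9.53 points). Genes in the central part of a chromosome, from 33.3% to 66.7% of its length, had a peak in 79 of 110 cases (71.8%), against 137 of 226 outside it (60.6%), a difference of 11.2 points (interval 0.276 to 21.2). That difference was 17.0 points in replicate 1, with an interval above 0 (5.99 to 26.9). In replicate 2 it was 10.2 points, and the interval included 0 (-0.826 to 20.5).

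Autosomal tRNA genes had peaks less often than those on X. The planned comparison was that of single-copy genes, with other copy classes shown beside it. Over all genes the shares were 64.3% on the autosomes and 73.6% on X (203 of 276), a difference of -9.27 points (interval -16.4 to -1.87), with -10.4 points in replicate 1 and -9.90 points in replicate 2 and both intervals below 0. In the pooled list the shares were close, 88.1% on the autosomes and 89.5% on X. Among genes of 1 copy a peak lay at 35 of 86 single-copy autosomal genes (40.7%) and at 35 of 57 single-copy X genes (61.4%), a difference of -20.7 points (interval -35.8 to -3.98). It was -10.2 points in replicate 1 and -13.7 points in replicate 2, and both intervals included 0. When a summit counted for its nearest tRNA gene alone it was -4.92 points, with 35 of 86 autosomal and 26 of 57 X genes. Among genes with several copies the shares were 72.4% on the autosomes and 76.7% on X, a difference of -4.31 points (interval -12.1 to 3.63). That difference was -8.77 points in replicate 1 (interval -16.6 to -0.665) and -7.11 points in replicate 2 (interval -15.0 to 0.961). Of the 13 autosomal and 5 X genes over 10 edits from another tRNA gene, 0 and 2 had a peak.

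Of 11 listed genes for RNA polymerase III and its factors, 2 had a summit within 500 bp of the 5′ end, against 4.47% of all protein-coding genes. With 11 genes, nothing is read from this count. They were mafr-1, the homologue of the polymerase III repressor Maf1, with signal 88.8, and rpac-19, a subunit shared by polymerases I and III, with signal 63.0. The genes for the largest subunits, rpc-1 and rpc-2, for the TFIIIC subunits tftc-1, tftc-3 and tftc-5, and for the TFIIIB component brf-1 had none.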

How the data were processed

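ChIP-seq peak lists of 2 replicates of 1 group were used. Per the file lists in the labels, the authors derived peaks from each replicate's alignments, and from the pooled alignments, together with 1 further file whose kind is not given, and then made an IDR-thresholded optimal list on ce11, which holds the 2051 strongest entries of the pooled list. The labels name a possible control experiment, not used here. For the aligner and the peak caller, no name is given in the sources used here. Every entry holds a signal value and a −log10 q-value as deposited by the authors, and a summit. Signals were compared only within 1 list, and read depth is unknown. The ce10 lists were not used.

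tRNA genes, exons and protein-coding genes came from Ensembl release 115 of WBcel235. Amino acids, gene names and pseudogenes came from RefSeq for the same assembly, matched by WormBase gene identifier, and 334 of 336 genes had an amino acid. Clustered genes had another tRNA gene within 1000 bp end to end. Base edits were counted with edlib 1.3.9.post1. Scripts used Python 3.11.15, pandas 2.3.3, numpy 2.4.6 and scipy 1.17.1, and the window search and intervals were tested on simulated data.

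Shares have Clopper-Pearson and differences Newcombe 95% intervals. No test between groups exists for 1 group. Named genes were the 10 with the highest signal, the 3 highest in the isolated, clustered, intronic and intergenic classes, the highest of each amino acid with 10 genes, and the first 5 with no entry; others were chosen after seeing their values. The members and lists were chosen with earlier results of these data known. Alternatives were windows of 100 and 500 bp, the 1025 strongest optimal peaks, each replicate alone, the pooled list, the nearest gene alone, cluster distances of 500 and 2000 bp and subsets of genes.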

Additional observations from a re-analysis of the deposited data

How the results depend on the processing

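The share with a peak was 64.3%, and it was 48.5% with the 1025 strongest peaks and 88.1% with the pooled list. With the pooled list the isolated minus clustered difference was -1.45 points, the intronic minus intergenic -0.723 (and -1.24 with the 1025 strongest peaks), the B box minus no B box -3.39, and the other minus same amino acid of the neighbour 11.1. Isolated minus clustered was 17.9 with the nearest gene alone. Among genes with several copies alone, a setting chosen after seeing the data, isolated minus clustered was 14.1 and B box minus no B box -0.240. With 1 base free the B box difference was 36.7. Single-copy autosomal minus X was -8.43 within 100 bp, -9.55 with the 1025 strongest peaks, -4.53 in the pooled list, -4.92 with the nearest gene alone, and -13.7 to -10.2 with a replicate left out. The difference of 1 to 3 minus over 3 edits was 16.4 with the 1025 strongest peaks. The other 74 alternative values kept their direction and side of 0 or moved less than the spread. The causes were not tested. No paired analysis was possible because the study has 1 group. Depth is unknown, so a gene without a peak may lie below what these libraries could detect.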
